A study of Mus musculus with 9 samples.

Results

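The tripartite motif (TRIM) genes were taken as every row of the deposited table whose symbol is Trim followed by a digit. The rule used no measured value and gave 42 of the 14020 genes. Both the rule and the gene lists below were chosen with earlier results of these data known. Of these 42 genes, 32 reached a normalized count of 10 in at least 3 of the 9 libraries and were tested. None of the 32 passed that filter through libraries of 1 group alone. The 9 RNA sequencing libraries came from mouse hepatic stellate cells, liver pericytes that store vitamin A and make matrix once activated, cultured for 4 days in basal medium with serum. The series bears on the selective autophagy receptors p62, encoded by Sqstm1, and NBR1. The groups were libraries labelled double knock-out of Nbr1 and Sqstm1 (DKO), libraries labelled Sqstm1 knock-out (Sqstm1 KO) and wild type libraries (WT), with 3 libraries each. The series text itself speaks of Nbr1 knock-out cells. The labels used here give no age, strain, sex or way of gene deletion. Whether the 3 libraries of a group came from different mice or different dishes is not stated in them, so p-values cover only the spread between these libraries.

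TRIM proteins share a RING finger, B-boxes and a coiled coil, and most of them are ubiquitin ligases whose C-terminal domain picks the substrate. Many are induced by interferon and act in antiviral defence or tune the sensing of foreign nucleic acid, while others regulate chromatin, microtubules or membranes. Several TRIM proteins are known to bind p62 and to act as receptors or regulators of selective autophagy. Of the TRIM genes numbered in the GENCODE M21 annotation, 27 of 69 were not analysed here, among them Trim30b, Trim30c and Trim38.

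The values of all genes rested on 873156 to 1142862 reads per DKO library, 1060809 to 1333537 per Sqstm1 KO library and 819677 to 1467793 per WT library. Sqstm1 averaged 45.7 ± 17.7 normalized counts in DKO, 52.8 ± 29.8 in Sqstm1 KO and 240 ± 16.1 in WT (SD, n = 3 each). Nbr1 averaged 90.7 ± 17.5 in DKO, 78.9 ± 8.85 in Sqstm1 KO and 101 ± 7.64 in WT, so counts over the whole gene did not check the Nbr1 label, and each direction drawn from the DKO group rests on that label. Among stellate cell markers, 11 of 18 had values, with summed levels of 4556 to 6768 in DKO, 5392 to 6240 in Sqstm1 KO and 1812 to 1976 in WT, while the defining markers Des, Lrat, Reln, Ngfr, Lhx2, Rgs5 and Colec11 were not analysed here. Sqstm1 KO replicate 3 stood apart, with correlations across genes of 0.853 and 0.847 with its group. Without it, limma called 6, 5 and 3 TRIM genes in Sqstm1 KO against WT, DKO against Sqstm1 KO and DKO against WT, in place of 6, 7 and 3, and the calls lost were those of Trim12a and Trim25 in DKO against Sqstm1 KO (log2 fold changes 1.24 and 1.06). Mitochondrial mRNAs gave a measure of strand: the light-strand gene ND6 had 25818 normalized counts per kilobase, while the heavy-strand genes had 5886 (ND5), 824 to 2238 (ND1, ND2, COX1, ND4 and CYTB) and 10.7 (ND3). Pcsk7 had a mean of 10632 normalized counts and Tagln, whose exons overlap it on the other strand, had 271. No source used here gives the strand setting of the counting. If reads were counted on the opposite strand, each TRIM value printed here would hold reads from the strand opposite to that gene, and this was not tested.

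Mouse chromosome 7 carries a cluster of 10 TRIM genes that are relatives of human TRIM5, TRIM6, TRIM22 and TRIM34. In the order of the annotation these are Trim6, Trim34a, Trim5, Trim12a, Trim34b, Trim12c, Trim30b, Trim30c, Trim30a and Trim30d. Of the 10 genes, 8 had values and 5 were tested. The neighbours are related genes, so reads could be split between Trim12a and Trim12c, between Trim30a and Trim30d, and between Trim34a and Trim34b. Their transcript sequences were not compared here, and a split of reads was not tested. The promoter windows of 4 of the 5 tested genes (for Trim30a, 1 of its RefSeq windows) are shown because these genes moved together below. They are RefSeq sequences on GRCm38.p6, from 250 bases before to 50 bases after the start, written 5′ to 3′ along the gene, and capitals mark a match to the core of the interferon-stimulated response element (ISRE), a promoter element known for induction by interferon.
Trim30a, chr7:104465144-104465443, minus strand: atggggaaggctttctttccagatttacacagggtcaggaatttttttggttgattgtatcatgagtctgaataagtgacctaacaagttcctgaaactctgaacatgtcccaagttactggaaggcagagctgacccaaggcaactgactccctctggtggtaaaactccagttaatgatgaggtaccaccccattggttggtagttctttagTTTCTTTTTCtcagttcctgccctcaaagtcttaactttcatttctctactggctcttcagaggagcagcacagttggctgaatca
Trim30d, chr7:104507800-104508099, minus strand: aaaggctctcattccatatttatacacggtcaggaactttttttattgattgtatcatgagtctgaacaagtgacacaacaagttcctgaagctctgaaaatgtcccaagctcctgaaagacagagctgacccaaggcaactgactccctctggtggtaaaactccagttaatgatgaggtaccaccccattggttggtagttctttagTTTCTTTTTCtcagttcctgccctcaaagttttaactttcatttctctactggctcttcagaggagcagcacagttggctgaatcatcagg
Trim12c, chr7:104353300-104353599, minus strand: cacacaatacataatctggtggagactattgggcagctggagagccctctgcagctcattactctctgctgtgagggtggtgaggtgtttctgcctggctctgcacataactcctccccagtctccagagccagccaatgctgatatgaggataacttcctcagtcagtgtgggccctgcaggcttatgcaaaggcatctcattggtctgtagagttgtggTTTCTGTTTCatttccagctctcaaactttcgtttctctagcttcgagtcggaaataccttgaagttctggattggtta
Trim34b, chr7:104329221-104329520, plus strand: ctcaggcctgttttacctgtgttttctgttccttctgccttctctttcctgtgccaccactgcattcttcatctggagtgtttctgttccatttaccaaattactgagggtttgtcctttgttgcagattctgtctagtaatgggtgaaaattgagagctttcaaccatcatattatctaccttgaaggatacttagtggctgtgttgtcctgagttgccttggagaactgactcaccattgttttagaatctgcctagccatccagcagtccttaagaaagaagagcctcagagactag

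The element was searched on both strands as GAAA, any 2 bases and GAAA again, and the capitals above read as its reverse complement. The matches in Trim30a, Trim30d and Trim12c began at -36, -41 and -29, counted along the gene with the start base as 0, and the Trim34b window held no match. Of the 32 TRIM genes with a window, which are not the same set as the 32 tested genes, 9 held the element (28.1%). They were Trim12a, Trim12c, Trim2, Trim26, Trim30a and Trim30d, and the untested Trim21, Trim34a and Trim5. Among all genes of the table with a window, 3.58% of 10710 held the element. Within the cluster, 6 of the 8 genes with values held it. The element was also not found in the windows of Trim25 and Trim13. A second interferon motif, the gamma-activated site, was searched as TTCNNNGAA. It was found in 3 of the 32 TRIM genes with a window (9.38%), Trim15, Trim45 and Trim46. That share was close to the 8.38% of the genes of the table. The Trim30a and Trim30d windows shared an identical run of 118 bases, and the Trim12c and Trim12a windows shared 71. A match is a description of these letters and was not tested as a binding site.

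In Sqstm1 KO against WT, 6 of the 32 tested TRIM genes passed limma at an adjusted p of 0.05, against 5.61% of the 10118 genes tested. Trim30d, Trim30a, Trim12c and Trim34b of the chromosome 7 cluster and Trim25 fell, and Trim46 rose. Of all genes tested, 3.18% were called lower and 2.43% higher. In DKO against Sqstm1 KO, 7 TRIM genes passed, all of them higher, against 5.93% of all genes called, 4.42% higher and 1.51% lower: the 5 tested genes of the cluster, Trim25 and Trim13. In DKO against WT, 3 TRIM genes passed, against 6.42% of all genes called, 4.11% higher and 2.31% lower: Trim46 and Trim27 rose and Trim17 fell. The first and the second of these comparisons share the Sqstm1 KO libraries, so opposite signs in them are not independent, and the other pairs of comparisons share the WT or the DKO libraries. The share of TRIM genes whose groups did not overlap was 12 of 32, 8 of 32 and 11 of 32 in the 3 comparisons, against 26.0%, 21.0% and 31.2% of all genes. At an unadjusted limma p under 0.05 stood 12, 7 and 4 of the 32 TRIM genes, against 19.4%, 18.8% and 21.4% of all genes. On whole reads recovered from the values, edgeR called 6, 6 and 3 TRIM genes (all genes 6.35%, 6.07% and 7.26%) and DESeq2 called 6, 6 and 3 (all genes 7.93%, 7.08% and 8.7%). Log2 fold changes are on the scale of log2(normalized count + 1), which understates the change of low genes.

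**Figure D1:**
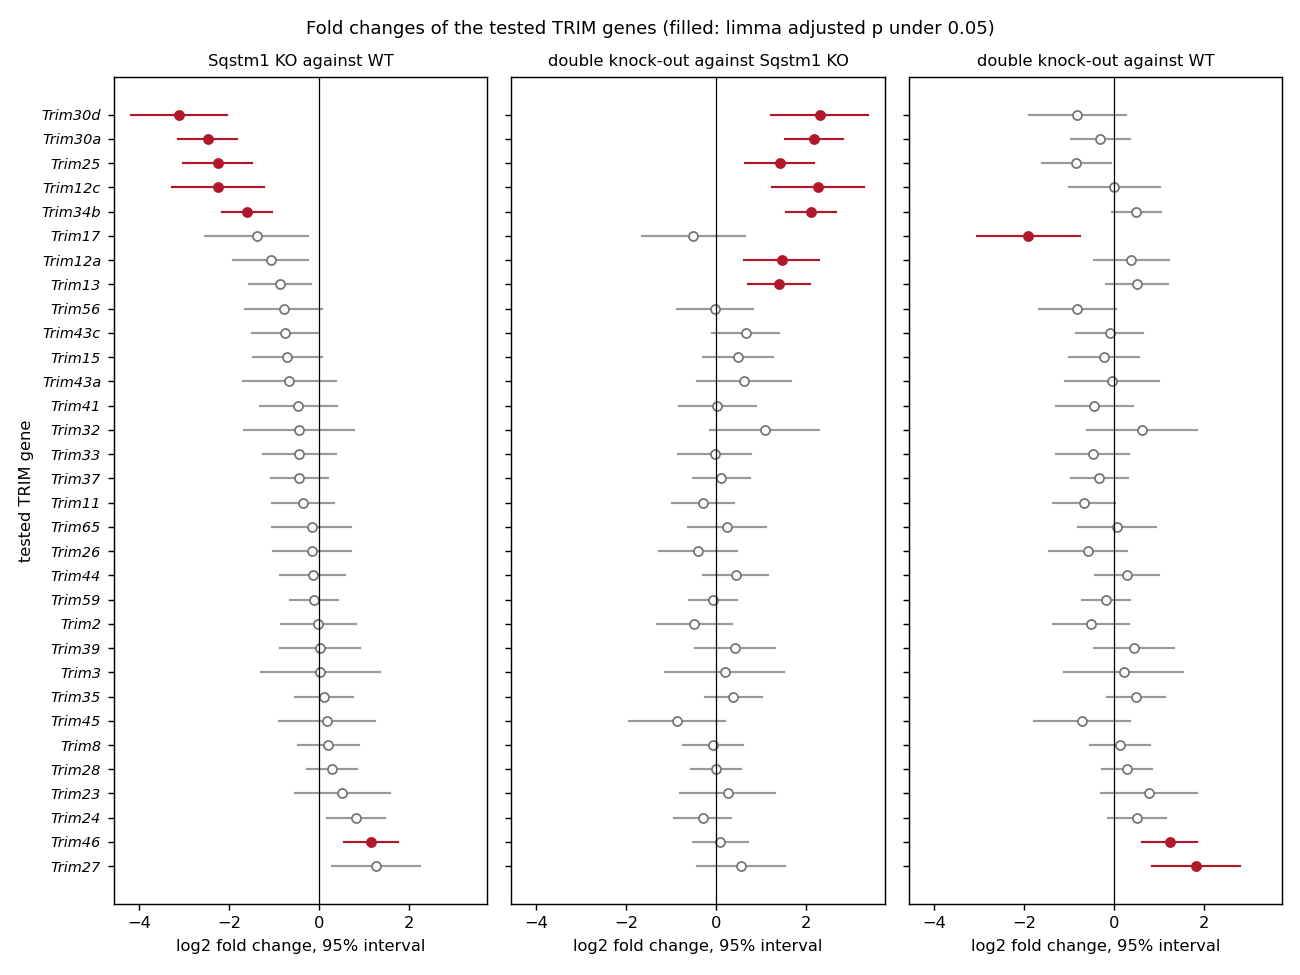
Log2 fold change (x axis) of each of the 32 tested TRIM genes (y axis) in Sqstm1 KO against WT, DKO (double knock-out) against Sqstm1 KO, and DKO against WT. Points are limma estimates, lines are 95% intervals, and filled red points passed an adjusted p of 0.05: 6, 7 and 3 genes from left to right.

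Trim30a, which in mouse restrains NF-kB signalling and promotes the degradation of STING, had 40.2, 61.6 and 36.9 normalized counts in DKO, 8.17, 9.74 and 9.76 in Sqstm1 KO, and 57.2, 51.2 and 58.8 in WT. The 3 Sqstm1 KO libraries lay below all other libraries, and the DKO and WT libraries overlapped. Trim30a fell in Sqstm1 KO against WT, with a mean 6.04-fold lower and a log2 fold change of -2.47 (SE 0.30; limma adjusted p = 0.000215). It rose in DKO against Sqstm1 KO, with a mean 5.01-fold higher and a log2 fold change of 2.18 (SE 0.30; limma adjusted p = 0.000496). Between DKO and WT its log2 fold change was -0.30 (95% interval -0.95 to 0.35; limma adjusted p = 0.619). Both calls held under each of the 18 alternatives run.

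Trim30d, its close paralogue at the end of the cluster, had 8.61, 28.5 and 10.2 normalized counts in DKO, 2.04, 3.25 and 1.08 in Sqstm1 KO, and 24.5, 23.4 and 26.7 in WT. DKO replicate 2 alone reached the WT range, and the other DKO libraries lay between Sqstm1 KO and WT. The Sqstm1 KO values rest on 7 reads in all 3 libraries. Trim30d fell in Sqstm1 KO against WT by 3.11 on the log2 scale (SE 0.50; limma adjusted p = 0.00191). The gene rose in DKO against Sqstm1 KO, with a log2 fold change of 2.29 (SE 0.50; limma adjusted p = 0.0132). That rise was not called without DKO replicate 2 (log2 fold change 1.79) or when only those groups were fitted. DKO set against WT gave a log2 fold change of -0.81 (SE 0.50; limma adjusted p = 0.377).

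Trim12c, which in mouse cooperates with TRAF6 in interferon and NF-kB signalling, had 48.8, 52.5 and 26.7 normalized counts in DKO, 7.15, 18.7 and 3.25 in Sqstm1 KO, and 39.5, 42.9 and 39.4 in WT. All Sqstm1 KO libraries were below the others, with replicate 2 the highest of them. The gene fell in Sqstm1 KO against WT, with a log2 fold change of -2.24 (SE 0.47; limma adjusted p = 0.012), a call lost without WT replicate 1 (-2.26) or WT replicate 2 (-2.20). It rose in DKO against Sqstm1 KO, with a log2 fold change of 2.25 (SE 0.47; limma adjusted p = 0.0105), a call lost without DKO replicate 1 (2.13) or when only those groups were fitted. DKO and WT overlapped, at a log2 fold change of 0.01 (SE 0.47; limma adjusted p = 0.989).

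Trim12a, the nearby relative, had 19.1, 18.3 and 19.1 normalized counts in DKO, 6.13, 8.93 and 4.34 in Sqstm1 KO, and 12.3, 14.3 and 16.4 in WT. The groups did not overlap in any comparison. Its rise in DKO against Sqstm1 KO (log2 fold change 1.46, SE 0.39; limma adjusted p = 0.0407) stood near the threshold. That call was lost under 13 of 17 alternatives, among them edgeR, DESeq2, quantile normalization, a fit of only those groups, and the fits without any single library other than Sqstm1 KO replicate 2, with log2 fold changes of 1.24 to 1.48 in those 8 fits. Against WT, Sqstm1 KO had a log2 fold change of -1.07 (SE 0.39; limma adjusted p = 0.134) and DKO of 0.38 (SE 0.39; limma adjusted p = 0.621).

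Trim34b had the highest mean of the TRIM genes, on values not divided by gene length. Its normalized counts were 1141, 993 and 1086 in DKO, 256, 221 and 272 in Sqstm1 KO, and 975, 689 and 646 in WT. The groups did not overlap in any comparison, with DKO highest and Sqstm1 KO lowest. Trim34b fell in Sqstm1 KO against WT, with a mean 3.08-fold lower and a log2 fold change of -1.60 (SE 0.26; limma adjusted p = 0.00179). In DKO it rose against Sqstm1 KO, with a mean 4.30-fold higher and a log2 fold change of 2.10 (SE 0.26; limma adjusted p = 0.00017). Both calls held under each alternative run. In DKO against WT its log2 fold change of 0.50 (SE 0.26; limma adjusted p = 0.281) did not pass. Trim34b lies tail to tail with Trim12c on the other strand.

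The 3 cluster genes under the filter had few reads. Trim5 had 19.1, 5.71 and 12.7 normalized counts in DKO, 5.10, 5.68 and 9.76 in Sqstm1 KO, and 2.72, 6.78 and 6.06 in WT, on 77 reads in all. Trim34a had 2.87, 6.85 and 5.09 in DKO, 2.04, 3.25 and 0 in Sqstm1 KO, and 1.36, 3.01 and 5.46 in WT. Trim6 ranged over 1.27 to 2.87 in DKO, 1.62 to 9.76 in Sqstm1 KO and 3.64 to 4.09 in WT. Groups overlapped for Trim5 and Trim34a, the DKO libraries lay below WT for Trim6, and none of these differences was tested. In DKO against WT none of the 5 tested cluster genes was called by limma, edgeR or DESeq2, and none had an unadjusted limma p under 0.05.

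**Figure D2:**
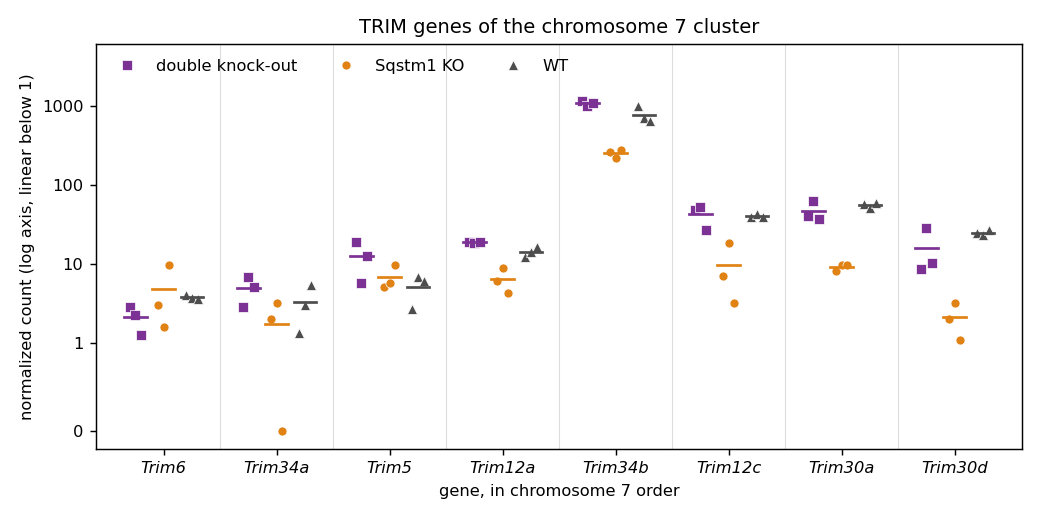
Normalized count (y axis, log scale, linear below 1) of the 8 chromosome 7 cluster genes with values, in the order of the annotation, for 3 libraries each of DKO (double knock-out, squares), Sqstm1 KO (circles) and WT (triangles), with bars at the means. Sqstm1 KO lies below both other groups in all 5 tested genes, Trim12a, Trim34b, Trim12c, Trim30a and Trim30d.

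Outside the cluster, Trim25, the ligase that modifies the RNA sensor RIG-I, had 24.9, 29.7 and 25.5 normalized counts in DKO, 10.2, 14.6 and 5.42 in Sqstm1 KO, and 42.2, 50.5 and 53.4 in WT. The 3 groups did not overlap, with DKO between the others. Trim25 fell in Sqstm1 KO against WT, with a mean 4.83-fold lower and a log2 fold change of -2.25 (SE 0.36; limma adjusted p = 0.00173), which held under each alternative that gave a value. The level rose in DKO against Sqstm1 KO, with a log2 fold change of 1.41 (SE 0.36; limma adjusted p = 0.0316). That rise was not called when only those groups were fitted, nor without any single library other than Sqstm1 KO replicate 2, with log2 fold changes of 1.06 to 1.46 in those 8 fits. DKO set against WT gave a log2 fold change of -0.84 (SE 0.36; unadjusted p = 0.0336, limma adjusted p = 0.19).

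Trim13, a ligase anchored in the endoplasmic reticulum that acts in its quality control, had 31.6, 28.5 and 29.3 normalized counts in DKO, 11.2, 11.4 and 9.76 in Sqstm1 KO, and 25.9, 19.6 and 17.0 in WT. The groups did not overlap. It rose in DKO against Sqstm1 KO, with a log2 fold change of 1.39 (SE 0.32; limma adjusted p = 0.0198), a call lost without DKO replicate 1 (1.35) or DKO replicate 3 (1.40) or when only those groups were fitted. Against WT, the log2 fold change was -0.87 in Sqstm1 KO (SE 0.32; limma adjusted p = 0.146) and 0.52 in DKO (SE 0.32; limma adjusted p = 0.385). Trim59, the other membrane-anchored TRIM, had 68.8, 93.6 and 94.2 in DKO, 87.8, 95 and 84.6 in Sqstm1 KO, and 80.3, 102 and 109 in WT, with groups that overlapped and log2 fold changes of -0.18 to -0.07.

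Trim46, which in neurons bundles microtubules at the start of the axon, had 51.6, 43.4 and 61.1 normalized counts in DKO, 58.2, 42.2 and 46.6 in Sqstm1 KO, and 19.1, 19.6 and 25.5 in WT. Both knock-out groups lay above WT and overlapped each other. Trim46 rose in Sqstm1 KO against WT, with a mean 2.29-fold higher and a log2 fold change of 1.16 (SE 0.28; limma adjusted p = 0.0279). It rose in DKO against WT, with a mean 2.44-fold higher and a log2 fold change of 1.24 (SE 0.28; limma adjusted p = 0.017). The first call was lost when only those groups were fitted and without Sqstm1 KO replicate 1 or any single WT library (1.03 to 1.29), and the second without DKO replicate 1 or 3 or WT replicate 1 or 2 (1.12 to 1.24). An exon of Krtcap2 overlaps Trim46 on the other strand, and Krtcap2 had 19.1, 14.8 and 21.7 in DKO, 19.4, 13.8 and 4.34 in Sqstm1 KO, and 5.45, 6.03 and 6.67 in WT. Without a known strand setting, reads of the overlap cannot be told apart.

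Trim27, a ligase of endosomal recycling and nuclear bodies, had 32.5, 29.7 and 12.7 normalized counts in DKO, 10.2, 19.5 and 18.4 in Sqstm1 KO, and 5.45, 8.29 and 4.24 in WT. WT lay below both other groups. Trim27 rose in DKO against WT, with a mean 4.17-fold higher and a log2 fold change of 1.83 (SE 0.46; limma adjusted p = 0.0267), a call lost without DKO replicate 1 or 2 or any single WT library (1.59 to 2.06). In Sqstm1 KO against WT the log2 fold change was 1.28 (SE 0.46; unadjusted p = 0.0141, limma adjusted p = 0.13).

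Trim17, known from neuronal apoptosis through degradation of MCL1, had 2.87, 12.6 and 6.37 normalized counts in DKO, 16.3, 5.68 and 8.68 in Sqstm1 KO, and 31.3, 34.7 and 16.4 in WT. Both knock-out groups lay below WT, by a narrow margin between Sqstm1 KO replicate 1 and WT replicate 3. It fell in DKO against WT by 1.90 on the log2 scale (SE 0.53; limma adjusted p = 0.0485), a call lost under 7 alternatives, among them a pseudocount of 0.5 and the fits without DKO replicate 1 or 3 or any single WT library (-2.22 to -1.44). In Sqstm1 KO against WT the log2 fold change was -1.39 (SE 0.53; unadjusted p = 0.0207, limma adjusted p = 0.161). Trim17 overlaps exons of Hist3h2a, and of 2310058D17Rik on the other strand.

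**Figure D3:**
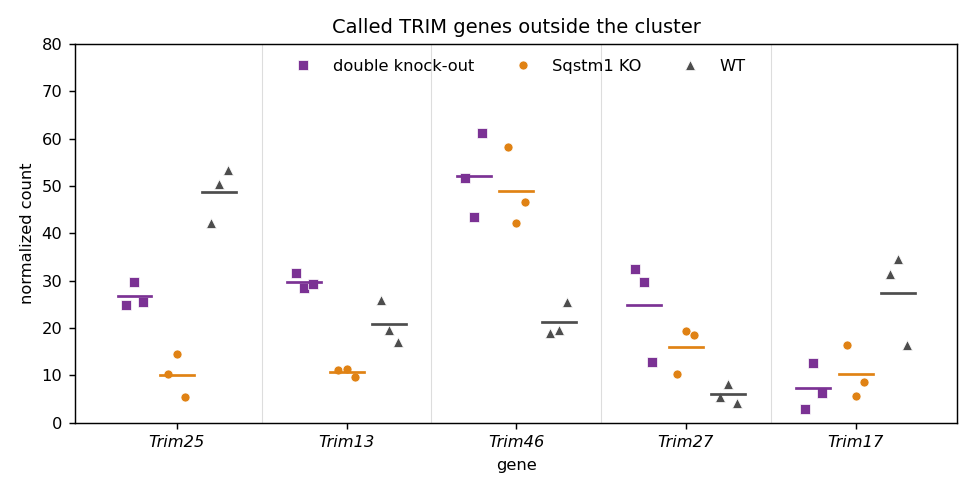
Normalized count (y axis, linear) of the 5 called TRIM genes outside the chromosome 7 cluster, for 3 libraries each of DKO (double knock-out, squares), Sqstm1 KO (circles) and WT (triangles), with bars at the means. Trim25 and Trim13 are lowest in Sqstm1 KO, Trim46 and Trim27 are lowest in WT, and Trim17 is highest in WT.

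A list of 15 interferon-inducible TRIM genes had 12 genes in the table and 8 tested, Trim12a, Trim12c, Trim25, Trim26, Trim30a, Trim30d, Trim34b and Trim56. Because the list was chosen with earlier results of these data known, its counts only describe these libraries. In Sqstm1 KO against WT, 5 of the 8 fell and the other 3 did not pass, with a median log2 fold change of -1.92 beside -0.01 over all genes tested. In DKO against Sqstm1 KO, 6 of the 8 rose, with a median of 1.78 beside -0.01 over all genes. In DKO against WT, 0 of the 8 passed limma (1 at an unadjusted p under 0.05), 0 passed edgeR and 0 passed DESeq2, with a median of -0.43 beside -0.02 over all genes. Over the 32 tested TRIM genes the medians were -0.40, 0.24 and -0.02 in the same order. Without single libraries, the count was 4 to 5 in Sqstm1 KO against WT and 3 to 6 in DKO against Sqstm1 KO, the lowest without DKO replicate 1 or 2, and it was 2 when only those groups were fitted.

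The list was not uniform. Trim26, which targets IRF3, had 31.6, 12.6 and 24.2 normalized counts in DKO, 16.3, 34.1 and 42.3 in Sqstm1 KO, and 30.0, 33.9 and 32.7 in WT, with groups that overlapped in each comparison. Its log2 fold changes were -0.16 in Sqstm1 KO against WT and -0.41 in DKO against Sqstm1 KO (SE 0.40 each). Trim56, which modifies cGAS and STING, had 13.4, 16.0 and 11.5 in DKO, 15.3, 19.5 and 8.68 in Sqstm1 KO, and 16.3, 30.1 and 29.7 in WT. DKO lay below WT for Trim56, at a log2 fold change of -0.82 (SE 0.40; limma adjusted p = 0.257), and DKO and Sqstm1 KO overlapped, at -0.03. Trim21, the cytosolic antibody receptor, had 5.74, 14.8 and 8.92 in DKO, 5.10, 7.30 and 2.17 in Sqstm1 KO, and 4.09, 9.79 and 6.67 in WT. Trim14, a mitochondrial signalling adaptor without a RING finger, had 2.87, 1.14 and 3.82 in DKO, 5.10, 4.06 and 4.34 in Sqstm1 KO, and 1.36, 3.77 and 4.85 in WT, and its exons overlap those of Nans on the other strand. Trim21 and Trim14 were under the filter and had no test.

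Genes that sense nucleic acid or carry the interferon signal were set beside the TRIM genes. Of 25 listed symbols, 21 had values and 18 were tested. The symbols without values include Ddx58 and Tmem173, older names of Rigi and Sting1, which had values. In Sqstm1 KO against WT 6 of the 18 fell and 12 did not pass (3.18% of all genes fell; median log2 fold change -0.84, all genes -0.01). In DKO against Sqstm1 KO 9 rose and 9 did not pass (4.42% of all genes rose; median 1.28, all genes -0.01). In DKO against WT 3 rose and 15 did not pass (4.11% of all genes rose; median 0.45, all genes -0.02). Stat2 had 35.4, 74.2 and 53.5 normalized counts in DKO, 7.15, 13.0 and 5.42 in Sqstm1 KO, and 38.1, 53.5 and 62.5 in WT. All Sqstm1 KO libraries of this interferon-activated transcription factor lay below the others, with a log2 fold change in DKO against Sqstm1 KO of 2.56 (SE 0.38; limma adjusted p = 0.000872).

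Isg15, a ubiquitin-like modifier, averaged 65.2 ± 19.0 in DKO, 8.54 ± 9.56 in Sqstm1 KO and 35.5 ± 4.75 in WT (SD, n = 3 each). Ifih1, the RNA sensor MDA5, averaged 48.7 ± 10.0 in DKO, 15.5 ± 3.43 in Sqstm1 KO and 37.2 ± 7.14 in WT. Irf7, an interferon-inducing factor, averaged 13.7 ± 1.97 in DKO, 1.15 ± 1.22 in Sqstm1 KO (4 reads in all) and 10.7 ± 5.35 in WT. All 3 genes fell in Sqstm1 KO against WT and rose in DKO against Sqstm1 KO. Dhx58, the RNA sensor LGP2, averaged 76.6 ± 26.5 in DKO, 13.9 ± 8.01 in Sqstm1 KO and 22.8 ± 4.22 in WT, and it rose in DKO against Sqstm1 KO, at a log2 fold change of 2.48 (SE 0.43; limma adjusted p = 0.00297), as it did against WT, at 1.65 (SE 0.43; limma adjusted p = 0.0355). Dhx58 overlaps its antisense gene Dhx58os, and Irf7 overlaps Phrf1.

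**Figure D4:**
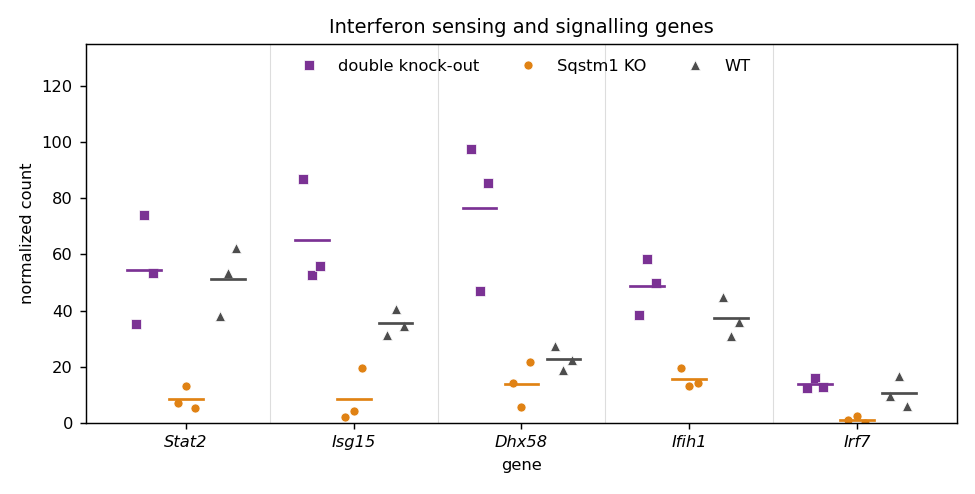
Normalized count (y axis, linear) of 5 interferon sensing and signalling genes, for 3 libraries each of DKO (double knock-out, squares), Sqstm1 KO (circles) and WT (triangles), with bars at the means. In Stat2, Isg15, Ifih1 and Irf7 all Sqstm1 KO libraries lie below all WT and DKO libraries, while for Dhx58 Sqstm1 KO and WT overlap.

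Cd14 and the Y-linked genes also differed between the groups. Of 15 macrophage markers 4 had values, Cd14, Cd68, Csf1r and Mpeg1, and their sum was 14.3 to 29.3 normalized counts in DKO, 8.68 to 12.3 in Sqstm1 KO and 20.3 to 35.4 in WT. Cd14 carried the difference in that sum. It averaged 11.1 ± 5.90 in DKO, 1.29 ± 1.59 in Sqstm1 KO (4 reads in all) and 17.6 ± 3.73 in WT. The other 3 markers were not lower together in Sqstm1 KO: Cd68 averaged 4.04 in DKO, 3.98 in Sqstm1 KO and 4.28 in WT, Csf1r averaged 3.2 in DKO, 3.05 in Sqstm1 KO and 1.97 in WT, and Mpeg1 averaged 2.67 in DKO, 2.71 in Sqstm1 KO and 1.77 in WT. The defining macrophage markers Adgre1, Clec4f, Marco, Ptprc, Lyz2 and C1qa were not analysed here. Fewer cells of a type and less RNA per cell cannot be told apart in these bulk libraries, and the part of macrophage RNA in the TRIM values was not tested. Summed Y-linked genes (Uty, Kdm5d, Ddx3y and Eif2s3y) stood at 76.5 to 112 in DKO and 176 to 177 in WT. The sum was 0 in each Sqstm1 KO library, so sex of the cells and genotype cannot be told apart in comparisons with Sqstm1 KO. DKO also lay below WT in this sum. Of the 4 genes only Eif2s3y was called lower in DKO than in WT, with means of 15.1 and 65.9. The other 3 did not pass, and Kdm5d averaged 20.3 in DKO and 20.5 in WT. Whether the sex of the cells adds to differences between DKO and WT, the Trim46, Trim27 and Trim17 calls included, was not tested.

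TRIM genes of the other structural classes gave few calls. The chromatin-binding TRIMs with a PHD finger and bromodomain, Trim24, Trim28 and Trim33, had 0 calls by limma, edgeR or DESeq2. Trim24 had the only unadjusted p under 0.05 among them, in Sqstm1 KO against WT. Its normalized counts were 71.7, 61.6 and 91.7 in DKO, 68.4, 79.5 and 142 in Sqstm1 KO, and 50.4, 51.2 and 53.4 in WT. Each knock-out library of Trim24 lay above WT, at log2 fold changes of 0.82 in Sqstm1 KO (SE 0.30; limma adjusted p = 0.138) and 0.51 in DKO (SE 0.30; limma adjusted p = 0.349). Trim28, the corepressor of zinc finger proteins, averaged 75.1 ± 17.4 in DKO, 74.1 ± 2.61 in Sqstm1 KO and 60.7 ± 9.22 in WT (SD, n = 3 each). Trim33 averaged 32.7 ± 10.9 in DKO, 34.2 ± 12.7 in Sqstm1 KO and 45.7 ± 14.5 in WT.

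The NHL-repeat genes Trim2, Trim3 and Trim32 had 0 calls by limma, edgeR or DESeq2 and none at an unadjusted limma p under 0.05. Trim32, a ligase mutated in a human muscular dystrophy, averaged 16.4 ± 6.63 in DKO, 8.54 ± 5.76 in Sqstm1 KO and 10.03 ± 3.0 in WT, with overlap. The fourth, Trim71, a stem cell gene that represses mRNAs, was under the filter: its 17 reads fell as 15 in DKO, 2 in Sqstm1 KO and 0 in WT. A count of 0 over the 3 WT libraries allows up to 0.808 normalized counts, for counting error only, and DKO replicate 3 was at 0 as well. Trim23, Trim37 and Trim45, with an ARF, MATH or filamin domain, had 0 calls by limma, edgeR or DESeq2 and none at an unadjusted p under 0.05.

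Among the 5 TRIM genes with the highest means, not divided by length, Trim11, a ligase of protein quality control, had 202, 161 and 223 normalized counts in DKO, 224, 160 and 379 in Sqstm1 KO, and 409, 301 and 233 in WT. DKO lay below WT (log2 fold change -0.66, SE 0.32; limma adjusted p = 0.257). Trim43c had 306, 142 and 236 in DKO, 196, 142 and 94.4 in Sqstm1 KO, and 325, 204 and 187 in WT. Its groups overlapped, and its log2 fold change in Sqstm1 KO against WT was -0.74 (SE 0.35; unadjusted p = 0.0494, limma adjusted p = 0.256). It has exon overlap with 9330159M07Rik on the other strand. Trim44, which lacks a RING finger and stabilises the adaptor MAVS, had 101, 107 and 77.7 in DKO, 85.8, 102 and 39.0 in Sqstm1 KO, and 65.4, 88.1 and 80.05 in WT, with overlap.

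Of the TRIM family genes with another name, Pml and Mid2 were tested, and 0 calls came from limma (1 unadjusted p under 0.05), edgeR or DESeq2. Pml, the scaffold of nuclear bodies, averaged 19.3 ± 10.3 in DKO, 9.45 ± 4.77 in Sqstm1 KO and 19.0 ± 2.71 in WT, with a log2 fold change in Sqstm1 KO against WT of -1.05 (SE 0.48; unadjusted p = 0.0476, limma adjusted p = 0.251). Mid2 averaged 9.44 ± 4.21 in DKO, 15.7 ± 2.84 in Sqstm1 KO and 12.6 ± 3.0 in WT. Mid1 and Rnf135 had values under the filter, with means of 10.2 and 3.57 in DKO, 3.39 and 2.98 in Sqstm1 KO, and 4.84 and 1.72 in WT, and Mefv, Triml1 and Triml2 were not analysed here. Of 8 tested ubiquitin-activating and ubiquitin-conjugating partners of TRIM ligases, 1 passed, in DKO against Sqstm1 KO, where 5.93% of all genes were called. That gene, Ube2v1, a partner of UBC13 in K63-linked chains, averaged 18.3 ± 3.17 in DKO, 3.8 ± 0.472 in Sqstm1 KO and 5.89 ± 3.70 in WT (log2 fold change in DKO against Sqstm1 KO 2.0, SE 0.53; limma adjusted p = 0.0402). The other 7 partners had negative log2 fold changes in that comparison, and the median of the 8 was -0.36 beside -0.01 over all genes.

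Sqstm1 and Nbr1 lie on mouse chromosome 11 with 9 of the TRIM genes, of which 6 were tested. Trim41 and Trim7 were the nearest to Sqstm1 in the RefSeq gene order, with 14 and 13 genes of the table between. Trim41, whose exons overlap those of Rack1 on the other strand, averaged 21.2 ± 8.01 in DKO, 21.3 ± 9.98 in Sqstm1 KO and 28.4 ± 8.02 in WT, at log2 fold changes against WT of -0.43 in DKO and -0.45 in Sqstm1 KO (SE 0.40 each). Trim7, which binds glycogenin, averaged 3.95 ± 1.73 in DKO, 2.87 ± 2.05 in Sqstm1 KO and 6.35 ± 2.80 in WT and was not tested. Trim25 lay 170 table genes from Nbr1, and Trim17 and Trim11 lay 80 and 81 from Sqstm1. Trim37 had log2 fold changes against WT of -0.32 in DKO and -0.43 in Sqstm1 KO, and Trim65, which modifies MDA5, of 0.07 and -0.16 in the same groups. Trim16, a galectin partner, and Trim47 were under the filter, with means of 1.46 and 5.99 in DKO, 2.19 and 9.07 in Sqstm1 KO, and 2.47 and 5.09 in WT.

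In all, 10 TRIM genes were called in at least 1 comparison, with 16 calls, and 22 tested genes were called in none. Of all 10118 genes tested, 12.0% were called in at least 1 comparison. The uncalled genes lay between log2 fold changes of -1.39 and 1.28 in Sqstm1 KO against WT, -0.88 and 1.07 in DKO against Sqstm1 KO, and -0.84 and 0.77 in DKO against WT. The 10 genes under the filter were Trim5, Trim6, Trim7, Trim14, Trim16, Trim21, Trim34a, Trim47, Trim68 and Trim71, with values of 0 to 19.1 and 17 to 77 reads over the 9 libraries. Exon overlap with a gene on the other strand was found for 9 of the 42 TRIM genes, of which 5 were tested. These 5 were Trim17, Trim35, Trim41, Trim43c and Trim46, so none of the called cluster genes, Trim25, Trim13 or Trim27 had such an overlap in the annotation. If reads were counted on the opposite strand, genes without an annotated overlap would be affected as well, and this was not tested.

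**Figure D5:**
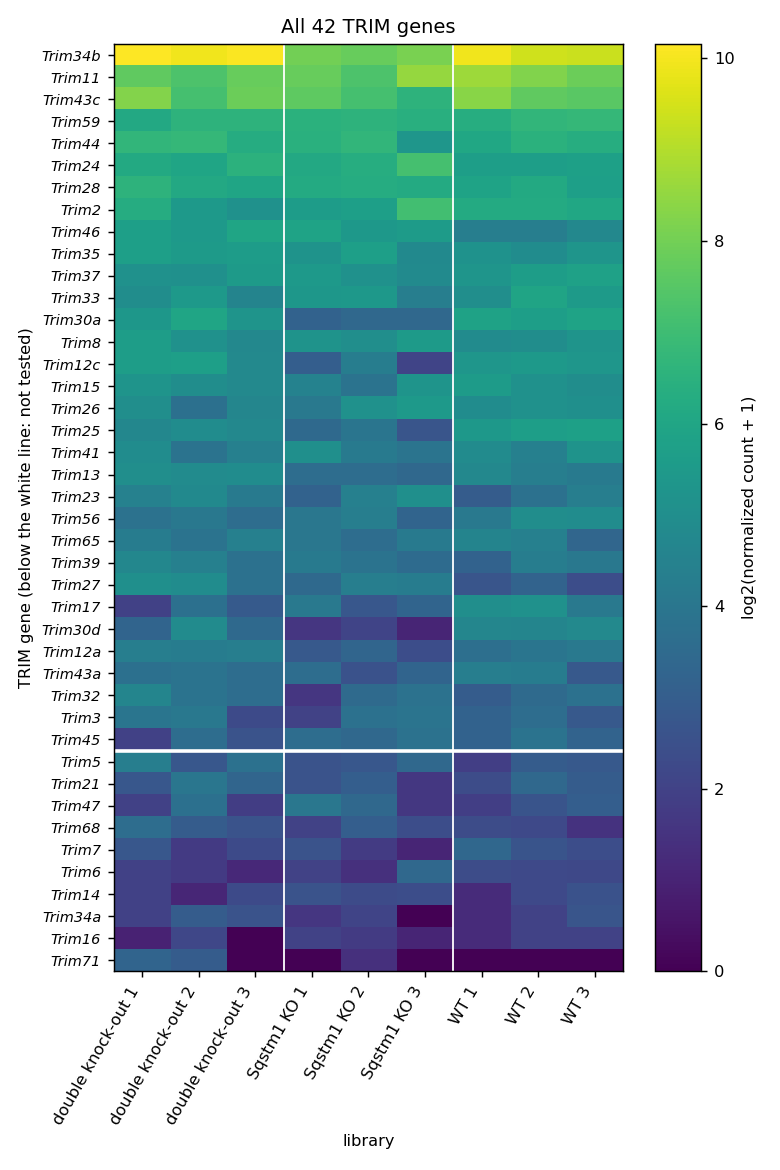
Level of all 42 TRIM genes (rows, tested genes above the white line, ordered by mean) in the 9 libraries (columns, DKO at the left, then Sqstm1 KO and WT), as log2 of the normalized count plus 1 (colour). The darker Sqstm1 KO columns can be seen in Trim34b, Trim30a, Trim12c, Trim30d and Trim25, and the genes under the line reached at most 19.1 normalized counts.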

How the data were processed

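Normalized counts of 14020 genes in 9 libraries were read from the deposited table. The deposited signal values are gene reads scaled by the authors with 1 factor for each library: 100% of 121126 values above 0 were whole multiples of the library's smallest value within 0.01, and 0 columns were left unused. Per the submitters' processing notes, STAR and DESeq2 were used on GRCm39; no source used here gives the counter, annotation, library kit or strand setting. The TRIM genes and the gene lists were chosen with earlier results of these data known. The named genes are those called in a comparison, those with an unadjusted p under 0.05, the interferon-inducible TRIM list, the 5 highest means, the chromosome 11 members, TRIM genes under another name and the 6 top genes of the interferon signalling list, of which 1 is not reported here.

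The test was limma 3.58.1 (R 4.3.3) with a mean-variance trend on log2(value + 1), two-sided, over all 9 libraries, for the 10118 genes that reached a value of 10 in 3 or more libraries. Benjamini-Hochberg adjustment ran over all genes tested, with a threshold of 0.05. The code was checked on simulated data. Whole reads recovered from the deposited values were also tested with edgeR 4.0.16, which called 642, 614 and 735 genes in Sqstm1 KO against WT, DKO against Sqstm1 KO and DKO against WT, and with DESeq2 1.42.0, which called 802, 716 and 880, against 568, 600 and 650 by limma. Other alternatives changed the pseudocount, the filter, the normalization, the samples fitted, the replicate block and each library in turn. Gene order in the chromosome 7 cluster and exon overlap came from GENCODE M21, which is on an earlier mouse build than the deposited values. Gene order on chromosome 11 came from RefSeq genes. The printed coordinates are those of the RefSeq promoter windows on GRCm38.p6 and were not converted. Reads are not counted molecules, and the floor of 3 counts over a group covers counting error only.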

Additional observations from a re-analysis of the deposited data

How the results depend on the processing

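Of the 16 TRIM calls, 6 held under every alternative that gave a value, 10 were lost under at least 1, and 0 changed sign. The 6 were Trim30a and Trim34b in Sqstm1 KO against WT and in DKO against Sqstm1 KO, and Trim30d and Trim25 in Sqstm1 KO against WT. In Sqstm1 KO against WT the 6 calls became 3 with a minimum value of 50, and were 4 to 6 without single libraries. In DKO against Sqstm1 KO the 7 calls became 2 with a minimum value of 50 and 2 when only those groups were fitted, and were 3 to 7 without single libraries, the lowest without DKO replicate 1. In DKO against WT the 3 calls became 1 with a minimum value of 50, and were 0 to 3 without single libraries, with 0 left without DKO replicate 1, WT replicate 1 or WT replicate 2. The minimum of 50 removes most TRIM genes from the test, and the cause of the other changes was not tested. Trim12c in DKO against WT, uncalled at 0.01, had log2 fold changes of -0.11 without DKO replicate 1, -0.16 without DKO replicate 2, -0.0061 without WT replicate 1 and -0.0074 without WT replicate 3, within a range of -0.16 to 0.31 over single libraries left out. With the replicate block, 6, 6 and 2 TRIM genes were called in the 3 comparisons, and the calls lost were Trim12a in DKO against Sqstm1 KO (log2 fold change 1.46) and Trim17 in DKO against WT (-1.90). The replicate numbers are not stated to pair the libraries, and same-numbered libraries had correlations of -0.115 to 0.178, over 0.1 in 5 of 9. Low reads limit Trim30d in Sqstm1 KO, with 7 reads, and the 10 TRIM genes under the filter. Outside the TRIM genes, they also limit Irf7 and Cd14, with 4 reads each in Sqstm1 KO.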
